A study of Homo sapiens with 9 samples.

Results

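Interferon-stimulated effector genes are the genes that a cell switches on after it senses an interferon, and their products act directly on viruses or on the machinery of the infected cell. A list of 49 such genes was followed over 9 microarrays of LNCaP, an established, androgen-responsive human prostate cancer line. A gene counted as measured when a probe set of the array carried its symbol and no other, and where a gene had several, the brightest on average stood for it. By this rule 48 of the 49 listed genes were measured, among 19775 genes in all, and the other 1 is not analysed here. The list names its genes by function and has no threshold on these values, but it was drawn up with earlier results of these data known.

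There was 1 array (Affymetrix U133 Plus 2.0) in each of 9 groups. In the shRNA arm, cells received a plasmid that made green fluorescent protein together with an shRNA against TOP2B (sh-TOP2B) or a control shRNA (sh-control), lost androgen for 48 h in 5% charcoal-stripped serum, were given 100 nM of the androgen dihydrotestosterone (DHT) or vehicle for 16 h, and were sorted for green fluorescence. TOP2B encodes topoisomerase II beta, which untangles DNA by passing strands through a transient cut. In the inhibitor arm, cells were not transfected: 1 array each came from deprived cells given 100 µM merbarone, or 100 µM etoposide, 2 h before DHT, from deprived cells given DHT, from cells kept in 10% serum without deprivation (steady state), and from deprived cells without DHT (vehicle). Merbarone blocks the catalytic cycle of topoisomerase II, and etoposide traps the enzyme on cut DNA. The source names of the sh-control samples say GFP only, while their descriptions name the sh-control vector. Knockdown rests on the sh-TOP2B vector alone, and no rescue or other shRNA is analysed here.

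Type I and type III interferons bind receptors that activate the JAK1, TYK2 and related kinases, and a complex built around IRF9 then binds the interferon-stimulated response element (ISRE) in the promoters of target genes. Interferon beta itself is made when RIG-I (RIGI), MDA5 (IFIH1) or DNA sensors detect foreign or misplaced nucleic acid. Interferon gamma acts through its own receptor and the GAS element, and IRF1 carries part of that response. LNCaP has been described as a line with little JAK1.

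Levels are log2 RMA values as deposited. A level below the median of all probe sets on its array (5.61 to 5.72) is called dim here. Where only 1 side of a comparison holds dim levels, each of these is set to the median of its array before the levels are averaged. The difference is then written "at least", also where not all arrays of that side are dim. Genes dim on all arrays of a comparison get no difference of their own. Medians, counts of direction and r values over the 48 genes or over all genes, and the figures, use the deposited values with dim ones included. Tests used limma over 11865 genes with Benjamini-Hochberg adjustment, and "rose" or "fell" is used only of adjusted p below 0.05. The filter on mean level kept 39 of the 48 genes. RTP4, XAF1, OAS2, IFI44L, SAMD9L, LAMP3, MX2, IFI16 and EPSTI1 fell below it and have values only, and none of the 39 passed the filter because of the sh-TOP2B arrays: 0 dropped out when the filter was taken over the other 7 arrays. With 1 array per group the spread comes from how far 3 DHT-vehicle pairs differ, so a p-value here covers the spread between these arrays and no other, which may be technical.

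The arms differed in RNA quality and cell handling. For the beta-actin control probe sets, the 3' minus 5' difference was 2.38 to 3.09 on the shRNA arrays and 0.38 to 0.70 on the inhibitor arrays. Of 7 measured luminal prostate markers, FOLH1, HOXB13, TMPRSS2, SLC45A3 and STEAP2 were above the median on all 9 arrays, with STEAP2 at 12.53 to 13.42. KLK3 was dim on 1 array, at 5.56 with merbarone, and was at 13.76 with DHT in sh-TOP2B cells. KLK2 was dim on 4 arrays, among them both shRNA vehicle arrays, and was at 12.20 with DHT in sh-TOP2B cells. Of 5 measured leukocyte markers, PTPRC, CD14 and LYZ were dim on all 9 arrays and CD3D on 8. ITGAM was above the median on 7 arrays. COL1A2, DCN and LUM of the 5 fibroblast markers were dim on all 9, and COL1A1 lay between 8.05 and 9.63. PDGFRB was dim on 7 arrays and above the median in steady state (5.96) and with etoposide (5.91). In cultured cells measured in bulk, fewer cells expressing a gene and less RNA per cell cannot be told apart.

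The stretches below show the letters of the ISRE in 6 genes with large positive differences with knockdown or merbarone, of which RTP4 was not tested. All were taken from genes whose promoter holds a match. OAS1, which rose with knockdown by more than HERC5 and GBP1, has no match in its window, and OASL and IFIT2 have no entry in the table. They are the 150 bases before the annotated start site (RefSeq, GRCh38.p14), read 5′ to 3′ on the strand of the gene, with each match to GAAANNGAAA or its other strand TTTCNNTTTC in capitals. The first base of a match lay at -42 and -18 in RTP4, at -116 and -103 in IFIT1, at -94 and -51 in IFIT3 and at -145 in RSAD2, counted from the start site. IFIT3 and RSAD2 have 2 start sites each in the table, and the one printed has the higher coordinate among those with a match. The other IFIT3 promoter also holds the letters, and the other RSAD2 promoter does not. HERC5 had matches at -125, -119 and -74, of which the first pair overlap, and GBP1 had 1 at -127.
RTP4 (chr3:187368235-187368384, plus strand): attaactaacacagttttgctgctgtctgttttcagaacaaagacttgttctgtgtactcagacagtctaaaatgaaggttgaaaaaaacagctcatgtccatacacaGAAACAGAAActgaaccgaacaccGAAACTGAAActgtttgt
IFIT1 (chr10:89392473-89392622, plus strand): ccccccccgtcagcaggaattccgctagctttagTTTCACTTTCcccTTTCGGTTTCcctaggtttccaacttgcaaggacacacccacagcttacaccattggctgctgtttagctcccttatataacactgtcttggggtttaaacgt
IFIT3 (chr10:89332379-89332528, plus strand): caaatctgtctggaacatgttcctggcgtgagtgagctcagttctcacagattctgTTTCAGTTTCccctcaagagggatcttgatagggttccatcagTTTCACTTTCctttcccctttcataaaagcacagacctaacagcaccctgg
RSAD2 (chr2:6877627-6877776, plus strand): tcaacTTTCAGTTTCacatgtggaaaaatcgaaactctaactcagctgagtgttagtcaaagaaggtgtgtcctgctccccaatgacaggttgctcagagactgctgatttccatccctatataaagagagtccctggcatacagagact
HERC5 (chr4:88456969-88457118, plus strand): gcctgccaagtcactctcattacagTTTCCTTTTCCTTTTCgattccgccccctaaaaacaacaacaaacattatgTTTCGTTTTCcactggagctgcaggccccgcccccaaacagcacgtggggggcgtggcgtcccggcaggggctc
GBP1 (chr1:89065209-89065358, minus strand): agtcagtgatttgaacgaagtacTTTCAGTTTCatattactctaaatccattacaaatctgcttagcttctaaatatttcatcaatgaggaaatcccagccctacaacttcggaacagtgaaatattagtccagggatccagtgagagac

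Of the 48 genes, 39 had a promoter in the RefSeq table (250 bases before to 50 after a start site), and 28 of these held an ISRE match, or 71.8%. A match was held by 4.38% of all 27305 genes of that table, and by 3.57% of its 35116 promoters. The GAS letters TTCNNNGAA, which read the same on the other strand, were found for 13 of the 39 genes, or 33.3%, against 9.38% of all genes and 7.66% of all promoters. ZC3HAV1 held no ISRE match. A match describes letters only and is not shown to be a bound site.

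The genes also share positions. Of the 48, 25 lie in 10 runs of neighbours less than 100 kb apart. The largest run holds IFIT2, IFIT3, IFIT1 and IFIT5 on chromosome 10. Runs of 3 are GBP1, GBP2 and GBP3 on chromosome 1, OAS1, OAS2 and OAS3 on chromosome 12 and IFITM1, IFITM2 and IFITM3 on chromosome 11. The other 6 runs are pairs: RSAD2 with CMPK2, HERC5 with HERC6, IFI44 with IFI44L, SAMD9 with SAMD9L, MX1 with MX2, and PARP9 with DTX3L.

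Over the 48 genes, the median level was 9.61 with DHT and 9.96 with vehicle in sh-TOP2B cells, against 8.10 and 8.49 in sh-control cells. In the inhibitor arm the median was 8.75 with merbarone and 8.31 with etoposide, against 8.42 with DHT alone. It was 6.41 in steady-state cells, against 8.32 with vehicle. The sh-TOP2B vehicle array was the highest of the 9 for 35 genes and the sh-TOP2B DHT array for 2 more. The steady-state array was the lowest for 30. These counts were not taken over all genes, so a share to set beside them is lacking. The 75th percentile of all probe sets was 8.22 to 8.24 on the shRNA arrays, against 7.76 to 7.83 on the inhibitor arrays. On the steady-state array 17 of the 48 genes were dim, on the sh-TOP2B arrays 5 with DHT and 4 with vehicle. IFI16 and EPSTI1 were dim on all 9 arrays, and 31 genes were above the median on all 9.

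**Figure D1:**
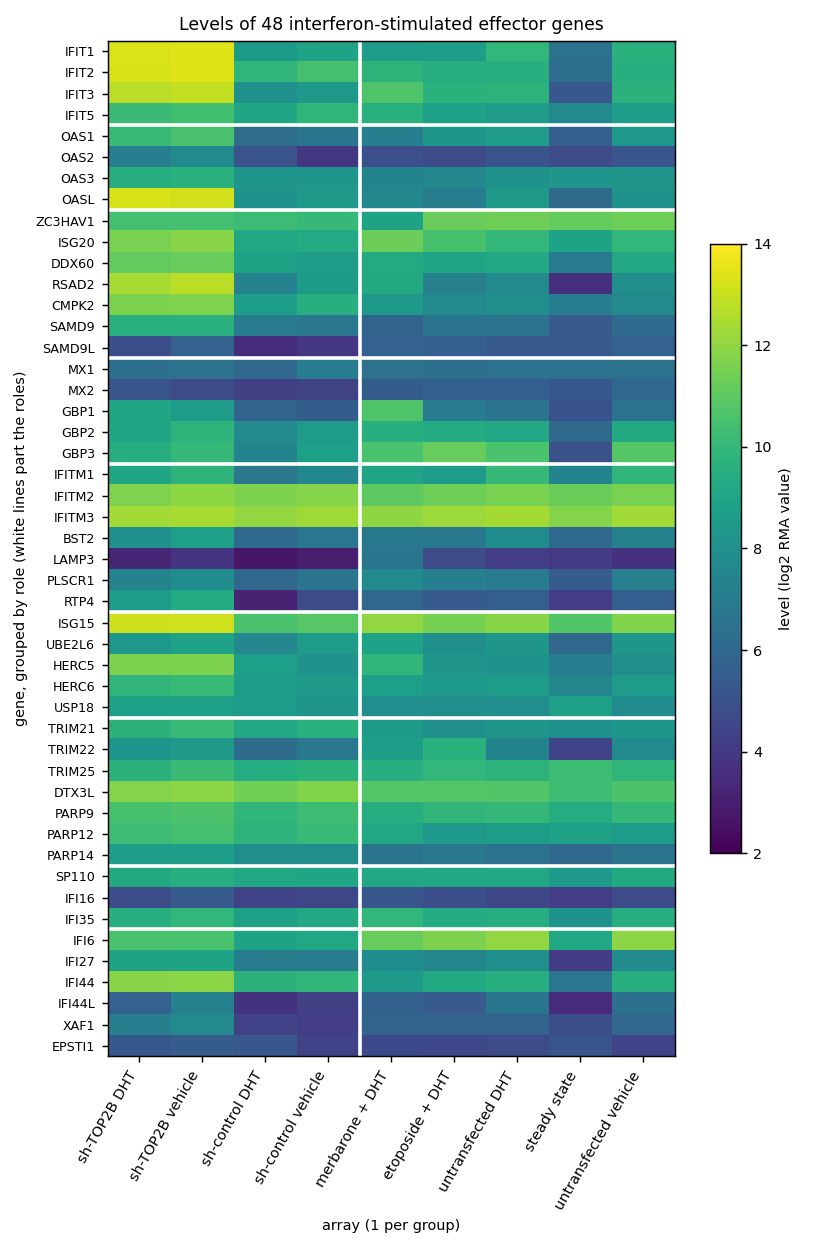
Levels (log2 RMA values, colour) of the 48 genes, in rows grouped by role, on 9 arrays in columns with 1 array per group. The sh-TOP2B columns hold the highest level for 37 genes, and the steady-state column the lowest for 30. These counts were not taken over all genes.

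The first comparison sets sh-TOP2B cells against sh-control cells. TOP2B itself was at 10.01 with DHT and 10.09 with vehicle in sh-TOP2B cells, against 10.87 and 10.54 in sh-control cells. It was lower on both sh-TOP2B arrays than on either sh-control array. The difference was -0.66 ± 0.12 (SE), or 1.58-fold lower, and did not pass (limma adjusted p = 0.0932). In the inhibitor arm TOP2B was at 10.03 with merbarone and 9.94 with etoposide, against 10.57 with DHT alone. These are differences of -0.54 and -0.63, from 1 array each. The TOP2B protein was not measured.

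Interferon-stimulated effector genes were higher in sh-TOP2B cells almost throughout. Of 39 tested genes 24 rose and 0 fell (61.5% higher), where 1.05% of all tested genes rose and 0% fell. The median difference over the 48 genes was 1.54, against -0.02 over all 19775 genes. The 24 are 19.4% of the 124 genes that rose in the whole data set, and 7 are among the 20 tested genes with the largest rise. Without the filter 26 of 48 rose, where 0.769% of all genes did. On fold alone, 27 of 48 were higher by at least 1 both with DHT and with vehicle after dim levels were raised, where 0.612% of all genes were. For 44 of the 48 genes both sh-TOP2B arrays lay above both sh-control arrays, where this held for 12.4% of all genes. The differences with DHT and with vehicle, which come from separate arrays, had r = 0.94 over the 48 genes and 0.55 over all tested genes.

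The tetratricopeptide proteins, which grip foreign RNA by its end, gave 3 of 4 past the test. IFIT1 was at 13.32 with DHT and 13.43 with vehicle in sh-TOP2B cells, against 8.55 and 8.94 in sh-control cells. It rose by 4.63 ± 0.16 (SE), or 24.8-fold (limma adjusted p = 8.39e-05). IFIT3, which binds IFIT1 and steadies it, was at 12.77 and 12.90, against 8.04 and 8.39 in sh-control cells. It rose by 4.61 ± 0.12 (adjusted p = 3.25e-05). IFIT2, a partner of both, was at 13.30 and 13.41, against 9.83 and 10.48, and rose by 3.20 ± 0.17. For all 3 the groups did not overlap, and the ISRE letters of IFIT1 and IFIT3 are among those printed above. IFIT5, the fourth neighbour, had 10.18 and 10.38, against 9.11 and 9.87. Its difference of 0.79 did not pass (adjusted p = 0.224).

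Oligoadenylate synthetases sense double-stranded RNA and, except for OASL, make the small molecule that activates RNase L. OASL, which instead boosts RIG-I signalling, was at 13.29 with DHT and 13.20 with vehicle in sh-TOP2B cells, against 8.16 and 8.50 in sh-control cells. It had the largest rise among the tested genes of the list, 4.91 ± 0.18 or 30.1-fold (limma adjusted p = 0.000104). OAS1 was at 10.07 and 10.55, against 6.28 and 6.67 in sh-control cells, and rose by 3.83 ± 0.19. OAS3 had a smaller rise of 1.27. OAS2 was dim in sh-control cells (5.07 and 3.94) and was higher by at least 1.72, at 7.14 and 7.68, without a test. All 4 were thus higher in sh-TOP2B cells by at least 1.

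Other effectors that act on nucleic acids or nucleotides gave 5 of 6 past the test. RSAD2 encodes viperin, which makes a chain-terminating nucleotide. It was at 12.43 with DHT and 12.77 with vehicle in sh-TOP2B cells, against 7.33 and 8.52 in sh-control cells. RSAD2 rose by 4.67 ± 0.23, or 25.5-fold (limma adjusted p = 0.000317). Its neighbour CMPK2, a mitochondrial nucleotide kinase, rose by 2.58. SAMD9, which restricts poxviruses, rose by 2.78. ISG20, an exonuclease, rose by 2.46, and DDX60, a helicase, by 2.42. ZC3HAV1, the zinc-finger antiviral protein that binds CpG-rich RNA, was at 10.41 and 10.39, against 10.23 and 10.06, and did not pass (0.26, adjusted p = 0.580). SAMD9L was dim on 3 of the 4 arrays.

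Among the large GTPases, GBP1 was at 9.07 with DHT and 8.65 with vehicle in sh-TOP2B cells, against 5.87 and 5.56 in sh-control cells. It rose by at least 3.07 (limma adjusted p = 0.000326). Guanylate-binding proteins coat and break open the vacuoles of intracellular pathogens. GBP1 has 4 probe sets, and their differences ran from -0.14 to 3.52, so the size depends on the probe set. GBP3 rose by 1.62 and GBP2 by 1.28. MX1, which traps viral nucleocapsids and is a widely used interferon marker, was the only gene of the 48 with a negative difference. It was at 6.38 and 6.48, against 6.08 and 7.09, so it was higher in sh-TOP2B cells with DHT and lower with vehicle. Its difference was -0.15 ± 0.28 (adjusted p = 0.967), and it has a single probe set that lay between 6.08 and 7.09 on all 9 arrays. MX2 was dim on all 4 arrays.

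Membrane proteins gave 3 of 5 past the test. IFITM1, which blocks fusion of viruses at the cell surface, rose by 2.29 and BST2, the tetherin that holds budding virus, by 2.00. PLSCR1, a phospholipid scramblase, rose by 1.26, the smallest rise past the test in the list, with probe sets from -0.04 to 1.26. IFITM2 (0.09) and IFITM3 (0.22) did not pass. They were already high, at 11.62 to 11.83 and 12.03 to 12.29 in sh-control cells. RTP4, a chaperone of G protein-coupled receptors, was dim in sh-control cells (3.13 with DHT and 4.76 with vehicle). In sh-TOP2B cells it was at 8.63 and 9.37, which is higher by at least 3.31, the largest value among the 9 untested genes. LAMP3 was dim on all 4 arrays.

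The ISG15 system attaches a ubiquitin-like protein to other proteins. ISG15 was at 13.07 with DHT and 13.13 with vehicle in sh-TOP2B cells, against 10.55 and 10.89 in sh-control cells. It rose by 2.38 ± 0.11 (limma adjusted p = 0.000265). HERC5, the main ligase that attaches ISG15, was at 11.63 and 11.65, against 8.75 and 8.06, and rose by 3.23 ± 0.18. Its relative HERC6 rose by 1.44. UBE2L6, the conjugating enzyme between them, had 0.59 (adjusted p = 0.698). USP18, which removes ISG15 and dampens the receptor, had 0.39 (adjusted p = 0.621).

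Smaller differences were seen in the ligases. Of 7 ubiquitin and ADP-ribose ligases 1 rose, TRIM22, a restriction factor with a difference of 1.87. PARP14 (0.81), TRIM21 (0.51), PARP9 (0.49), PARP12 (0.39), TRIM25 (0.37) and DTX3L (0.26) did not pass. All 6 differences were positive. The nuclear proteins SP110 (0.33) and IFI35 (0.72) did not pass either, and IFI16 was dim. Among the rest, IFI44 rose by 2.09, IFI27 by 1.87 and IFI6, an anti-apoptotic membrane protein, by 1.49. XAF1, a pro-apoptotic protein, and IFI44L were dim in sh-control cells and higher in sh-TOP2B cells by at least 1.69 and 0.83. EPSTI1 was dim on all 4 arrays.

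Of the 20 genes that rose and have a promoter in the RefSeq table, 17 held the ISRE letters and 7 the GAS letters. Over all 39 listed genes with a promoter these were 28 (71.8%) and 13 (33.3%). In 13 of the genes that rose there were several probe sets, and for 11 of these all differed in 1 direction, the exceptions being GBP1 and PLSCR1. On the shRNA arrays beta-actin had a 3' minus 5' value of 2.38 with DHT and 2.69 with vehicle in sh-TOP2B cells, against 2.67 and 3.09 in sh-control cells. The summed level of the leukocyte list was 22.7 to 23.7 in sh-TOP2B cells, against 22.2 to 22.9 in sh-control cells. The part of RNA quality and of other cells in the knockdown difference was not tested.

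**Figure D2:**
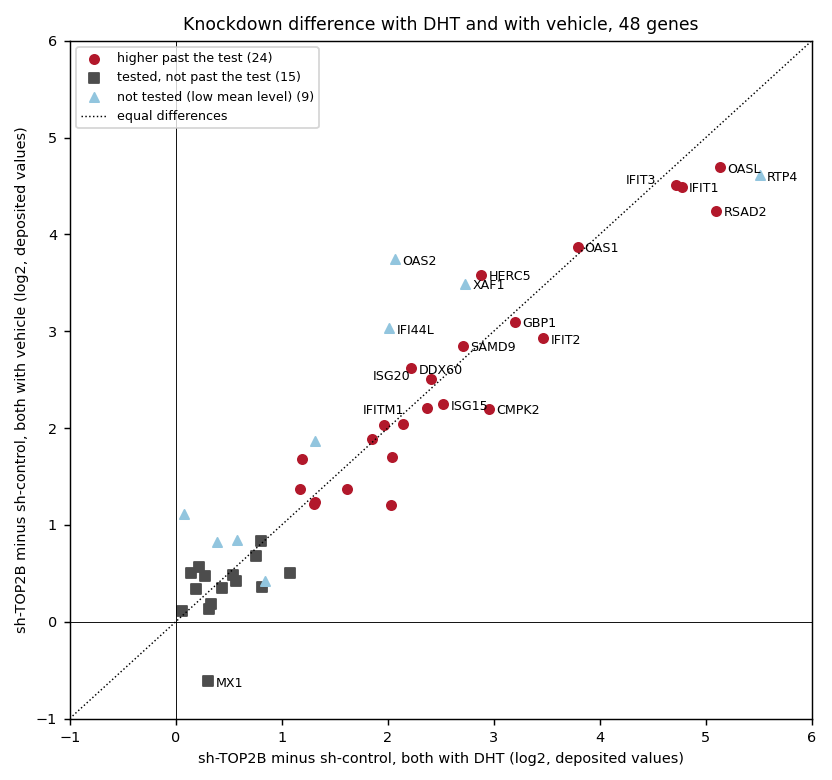
Difference between sh-TOP2B and sh-control cells (log2) with DHT on the horizontal axis and with vehicle on the vertical axis, for 48 genes, 1 array per group. Points lie near the dotted line of equal differences (r = 0.94), with RTP4, OASL, RSAD2, IFIT1 and IFIT3 above 4 on both axes and MX1 alone below 0 with vehicle.

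The difference was present with and without androgen. For OASL it was 5.13 with DHT and 4.69 with vehicle, and for IFIT1 4.77 and 4.49. A direct test of whether the DHT response differed between sh-TOP2B and sh-control cells called 0 of 39 genes (limma; 0 at an unadjusted p under 0.05), where 0% of all genes were called. The median of this difference of differences was 0.08 over the 48 genes. Its SE was wide, 0.42 for OASL and 0.49 for RSAD2 (0.85), so a difference of that size is not resolved.

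Upstream genes moved in part. Of 23 tested genes of a list of interferon ligands, receptors, kinases, factors and sensors, 5 rose and 0 fell, where 1.05% of all tested genes rose and 0% fell. RIGI, the RNA sensor, was at 11.59 with DHT and 11.73 with vehicle in sh-TOP2B cells, against 8.77 and 9.68 in sh-control cells, and rose by 2.44 ± 0.22 (limma adjusted p = 0.00334). IFIH1, the sensor of long double-stranded RNA, rose by 1.56, and DHX58, their regulator, by at least 1.44. Both sensors and the regulator are interferon-stimulated genes themselves. IRF9 rose by 1.36 (adjusted p = 0.0173) and IRF1 by 1.18 (adjusted p = 0.0201). The receptor subunits IFNAR1 (0.04) and IFNAR2 (-0.11) and the kinase TYK2 (-0.06) did not pass. JAK1 was dim on 3 of the 4 arrays.

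Interferon genes were low but not uniformly so. IFNB1, interferon beta, was at 7.15 with DHT and 7.35 with vehicle in sh-TOP2B cells, against 5.56 and 5.79 in sh-control cells. IFNL1, a type III interferon, was at 6.74 and 7.12, against 4.80 and 4.86. They were higher by at least 1.51 and 1.24, and neither was tested, since their means fell below the filter. On the 5 inhibitor arrays both genes were dim. IFNL2 was dim on all 9 arrays, and so were IFNE, IFNK and IFNG. The DNA sensor genes STING1 and CGAS were dim on all 9 arrays too.

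**Figure D3:**
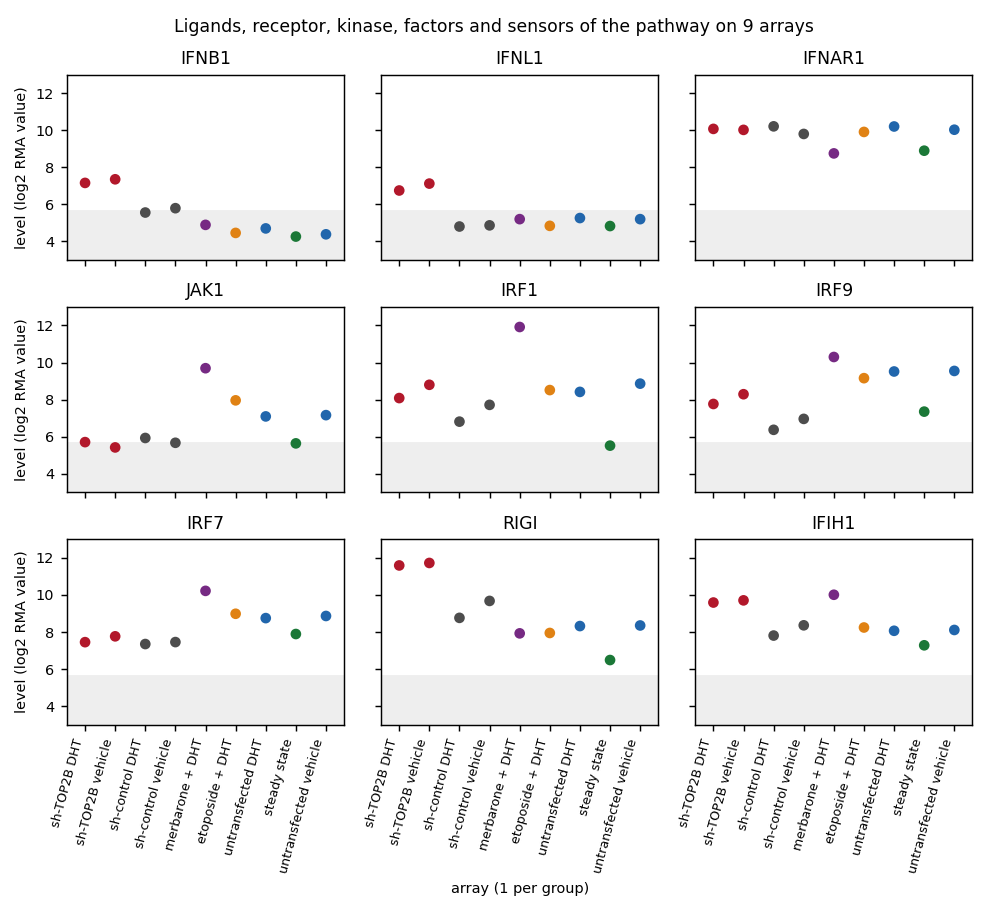
Levels (log2 RMA values) of 9 pathway genes on 9 arrays, 1 per group, with sh-TOP2B in red, sh-control in grey, merbarone in purple, etoposide in orange, DHT alone and vehicle in blue and steady state in green. The grey band marks levels below about the array medians: IFNB1 and IFNL1 are clearly above it on the sh-TOP2B arrays, and IRF1, JAK1, IRF7, IRF9 and IFIH1 are highest with merbarone.

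The next comparison asks what a chemical block of topoisomerase II did in DHT-treated cells. With merbarone the list split. Of 39 tested genes 7 rose and 10 fell (17.9% and 25.6%), where 15.4% of all tested genes rose and 16.3% fell, so the shares lie near those of all genes. The median difference over the 48 genes was 0.05, against -0.01 over all genes. The split ran through a family, since IFIT3 and IFIT5 rose and their neighbour IFIT1 fell. The 3 tested oligoadenylate synthetase genes all fell. The luminal list summed to 58.0 with merbarone, against 75.6 with DHT alone. In it the differences were uneven, with KLK3 at 5.56, against 11.02, and STEAP2 at 13.05, against 13.25. The leukocyte list summed to 25.3, against 24.9, and the part of these lists was not tested.

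GBP1 had the largest rise. It was at 10.70 with merbarone, against 6.61 with DHT alone, and rose by 4.09 ± 0.23 (limma adjusted p = 0.000187). Its 4 probe sets all had positive differences, from 0.45 to 4.43. HERC5 was at 9.91, against 8.12, and rose by 1.80 ± 0.25. RSAD2 was at 9.29, against 7.69, and rose by 1.60 ± 0.33. ISG20 rose by 1.32, TRIM22 by 1.31, IFIT5 by 0.98 and IFIT3 by 0.92. LAMP3, a lysosomal membrane protein, was at 6.68, against a dim 4.20. It was higher by at least 1.02 and was not tested. The neighbours of GBP1, GBP2 (0.32) and GBP3 (-0.05), did not pass.

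ZC3HAV1 had the largest fall. It was at 8.95 with merbarone, against 11.38 with DHT alone, and fell by 2.43 ± 0.13 (limma adjusted p = 0.000187). The 3 probe sets of ZC3HAV1 ran from -2.90 to 1.38, so the direction depends on the probe set. OAS1 was at 7.20, against 8.57, and fell by 1.37 ± 0.26. IFIT1 was at 8.62, against 9.96, and fell by 1.34 ± 0.23. IFI44 fell by 1.09, OASL by 0.97, IFI6 by 0.86, SAMD9 by 0.79, OAS3 by 0.75, IFITM2 by 0.54 and PARP9 by 0.53. IFITM1 (-1.05, adjusted p = 0.0552) and BST2 (-1.01, adjusted p = 0.135) did not pass. IFIT1 is thus a gene that rose with knockdown and fell with merbarone, as are OASL, OAS1, OAS3, SAMD9, IFI6 and IFI44. Others rose in both comparisons, namely GBP1, HERC5, RSAD2, ISG20, TRIM22 and IFIT3. These overlaps were not counted over all genes, so a share to set beside them is lacking. Of all tested genes 15.4% rose and 16.3% fell with merbarone.

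The pathway list had 6 rises and 2 falls among 23 tested genes with merbarone, where 15.4% of all tested genes rose and 16.3% fell. IRF1, which serves both interferon classes, was at 11.92, against 8.42 with DHT alone, and rose by 3.50 ± 0.22 (limma adjusted p = 0.000255). JAK1 was at 9.70, against 7.10, and rose by 2.60 ± 0.26. The 5 probe sets of JAK1 ran from -0.08 to 2.60. IFIH1 rose by 1.94, IRF7, which amplifies type I interferon, by 1.47, JAK2 by 1.06 and IRF9 by 0.78. The receptor genes IFNAR1 and IFNGR1 fell by 1.45 and 0.58, but their probe sets ran from -1.45 to 0.81 and from -0.71 to 1.26, so both directions depend on the probe set. TYK2 (0.41) and IFNAR2 (-0.55) did not pass. RIGI, which rose with knockdown, was at 7.93, against 8.32, and did not pass (-0.39).

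With etoposide at the same dose, 1 of 39 tested genes rose and 0 fell (2.56%), where 0.211% of all tested genes rose and 0.834% fell. TRIM22 was at 9.68 with etoposide, against 7.40 with DHT alone, and rose by 2.28 ± 0.22, or 4.85-fold (limma adjusted p = 0.0115). Over all 19775 genes 10314 were lower with etoposide, with a median of -0.02. Of the 48 genes 31 were lower, with a median of -0.12. The most negative were IFITM1 (-1.44, adjusted p = 0.127), OASL (-1.43, adjusted p = 0.0663) and IFIT1 (-1.29, adjusted p = 0.0630), and these did not pass. Of the 23 tested pathway genes 0 were called with etoposide (limma; 2 at an unadjusted p under 0.05), JAK1 had 0.87 (adjusted p = 0.207), and no pathway gene differed by 1 or more. The call for TRIM22 did not hold without the intensity trend or without the sh-control pair, in each of which 0 genes of the list were called.

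**Figure D4:**
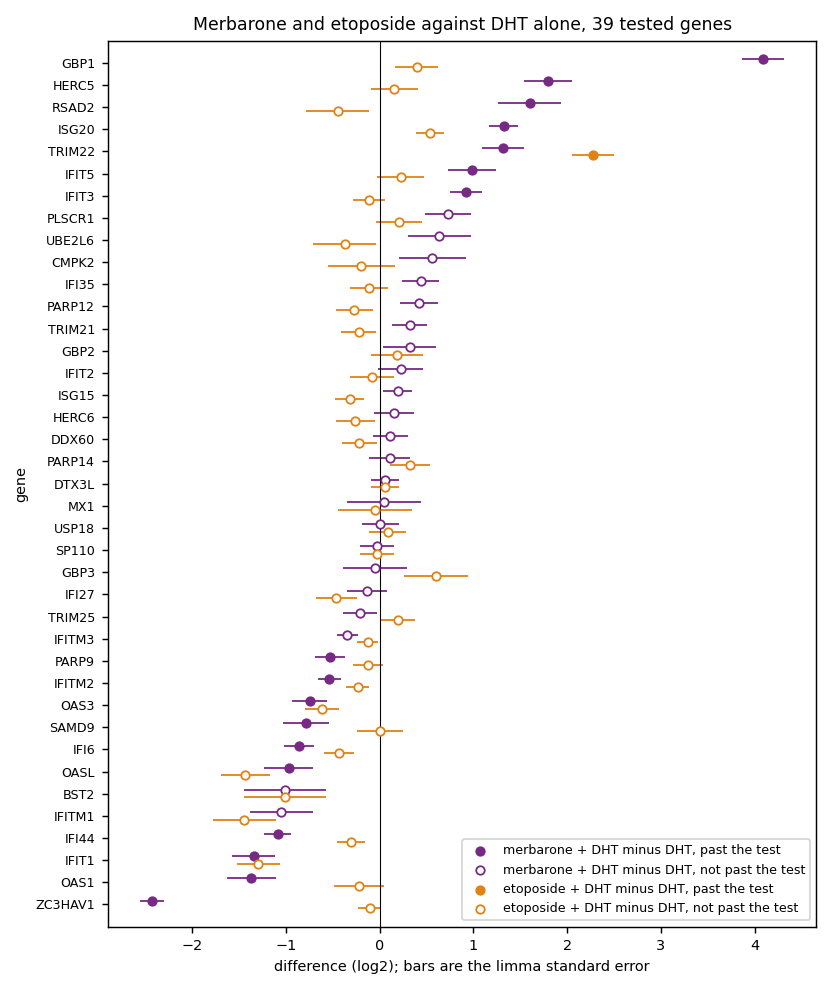
Difference (log2) from DHT alone for merbarone with DHT (purple) and etoposide with DHT (orange) over the 39 tested genes, with the limma standard error as bars and filled points for genes past the test. Merbarone differences run from -2.43 (ZC3HAV1) to 4.09 (GBP1), and TRIM22 is the only filled etoposide point.

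Set directly against etoposide at the same dose and time, merbarone gave 7 genes higher and 5 lower of 39 (17.9% and 12.8%), where 19.1% of all tested genes were higher and 13.5% lower. GBP1 was at 10.70 with merbarone, against 7.01 with etoposide, a difference of 3.69 ± 0.23 (limma adjusted p = 0.000359). RSAD2 (2.05), HERC5 (1.64), IFIT3 (1.03), ISG20 (0.79), PARP12 (0.69) and ISG15 (0.51) were also higher with merbarone. ZC3HAV1 (-2.32), OAS1 (-1.15), TRIM22 (-0.97), SAMD9 (-0.80) and IFI44 (-0.78) were lower. OASL had 0.46 (95% interval -0.16 to 1.08, adjusted p = 0.230) and IFIT1 -0.05 (-0.60 to 0.50, adjusted p = 0.920), so the compounds were not told apart in these genes at this precision. With arrays centred on ribosomal protein genes, 5 of 14 calls were higher (35.7%) in place of 58.3%. Without the untransfected pair in the fit 23 genes were called in place of 12. Shares of all genes were not taken under either setting.

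A further comparison sets cells grown in full serum against cells deprived of androgen. In steady-state cells the list was far lower. Of 39 tested genes 26 fell and 1 rose (66.7% and 2.56%), where 12.4% of all tested genes fell and 15.7% rose. The median difference over the 48 genes was -0.99, against 0.0033 over all genes. The amount of serum and its androgen content differed together, so their parts cannot be told apart. The leukocyte list summed to 22.4 in steady-state cells, against 25.8 with vehicle. Its member ITGAM was at 4.55, where it was dim, against 8.50, while PTPRC, CD14 and LYZ were dim on both. The luminal list summed to 82.3, against 62.8. In it KLK3 (13.82, against 5.68), KLK2 (11.68, against a dim 4.05), TMPRSS2 (12.32, against 9.84) and SLC45A3 (11.08, against 8.46) were higher. FOLH1 (9.21, against 10.17), STEAP2 (12.92, against 13.32) and HOXB13 (11.26, against 11.27) were not. The beta-actin 3' minus 5' value was 0.70, against 0.47. The part of these in the differences was not tested.

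GBP3 had the largest fall. It was at 4.99 in steady-state cells, where it was dim, against 10.86 with vehicle. That is at least 5.23 lower, or 37.6-fold (limma adjusted p = 0.000103). IFIT3 was at 5.28, against 9.73, and fell by at least 4.11. IFIT1 was at 6.46, against 9.68, and fell by 3.22 ± 0.23. IFIT2 was at 6.36, against 9.51, and fell by 3.15 ± 0.24. All 4 tetratricopeptide genes fell, IFIT5 by 0.93. GBP2 fell by 3.13, IFI44 by 2.88, OAS1 by 2.79, IFI6 by 2.74 and IFITM1 by 2.51. Some genes dropped out of sight in steady-state cells: RSAD2 was at 3.65, against 7.94, at least 2.31 lower, IFI27 at 4.15, against 7.77, at least 2.15 lower, and TRIM22 at 4.40, against 7.69, at least 2.06 lower.

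Smaller falls were seen in the ISG15 system. UBE2L6 was at 6.01, against 8.34 with vehicle, and fell by 2.33 ± 0.34, HERC6 fell by 1.13 and ISG15 by 0.98. HERC5 (-0.81, limma adjusted p = 0.0538) did not pass. USP18, the brake of the receptor, was at 8.80, against 7.77, and was the only gene of the list that rose (1.03 ± 0.20, adjusted p = 0.0103). OASL fell by 1.97, DDX60 by 2.31, PLSCR1 by at least 1.59, IFI35 by 1.28, ISG20 by 1.00 and GBP1 by at least 0.84. SP110, SAMD9, PARP9 and IFITM3 were the other genes that fell, by 0.82, at least 0.59, 0.57 and 0.57. Of 15 called genes with several probe sets, 14 differed in 1 direction in all of them, and PARP9 ran from -0.57 to 0.43. MX1 (-0.02), OAS3 (0.06), ZC3HAV1 (-0.19) and IFITM2 (-0.24) were among those that did not pass.

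**Figure D5:**
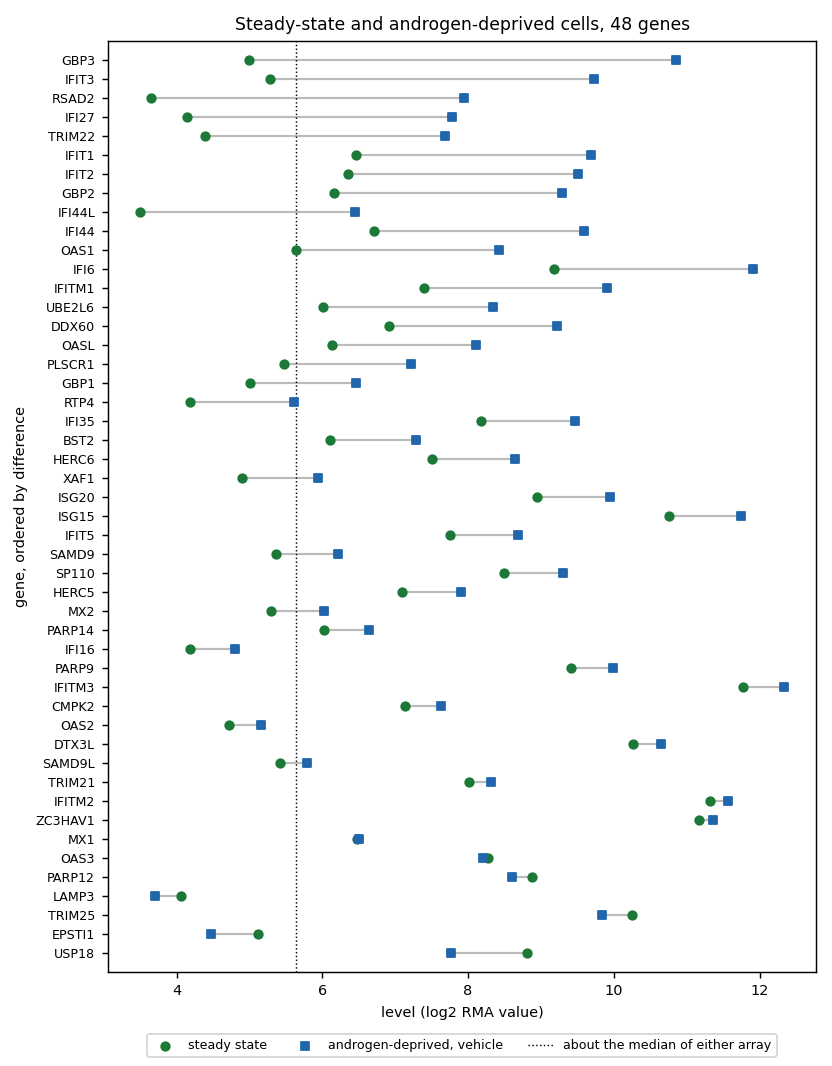
Levels (log2 RMA values) of the 48 genes in steady-state cells (green circles) and in androgen-deprived cells with vehicle (blue squares), 1 array each, ordered by difference. The line between them is longest for GBP3 and IFIT3, and 42 of the 48 genes are lower in steady-state cells.

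Of 23 tested pathway genes 11 fell and 0 rose in steady-state cells, where 12.4% of all tested genes fell and 15.7% rose. IRF1 was at 5.52 in steady-state cells, where it was dim, against 8.86 with vehicle, at least 3.24 lower (limma adjusted p = 0.000161). IFNGR1 fell by 2.51, IRF9 by 2.19, TLR3 by 2.12, RIGI by 1.86 and JAK1 by 1.52 (probe sets from -1.52 to 0.03). IFNAR1 fell by 1.13 (probe sets from -1.41 to 0.43), IL10RB by 1.11, IRF2 by 1.07, IRF7 by 0.97 and IFIH1 by 0.83. TYK2 (0.29) and IFNAR2 (-0.41) did not pass. IFNB1 and IFNL1 were dim on both arrays.

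The knockdown and steady-state comparisons share no array. In all, 20 genes both rose with knockdown and fell in steady state, which is 83.3% of the 24 and 76.9% of the 26. Over all tested genes, 66 of the 124 that rose with knockdown fell in steady state, or 53.2%, and they are 4.47% of the 1477 that fell. Without the list these were 46 of 100 genes, and 3.17% of 1451. BST2, CMPK2, HERC5 and OAS3 passed with knockdown and not in steady state, and IFI35, IFIT5, IFITM3, PARP9, SP110 and UBE2L6 the other way round. Whether the sizes differ between the comparisons was not tested. Over the 48 genes the knockdown and steady-state differences had r = -0.54, and over all tested genes r = -0.23. For knockdown and merbarone r was 0.08 over the 48 genes and 0.05 over all tested genes, again from separate arrays. These r values run across genes, which are not independent replicates. Both lists take their spread from the same 3 pairs.

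DHT on its own gave no call. Of 39 tested genes 0 were called (limma; 8 at an unadjusted p under 0.05), where 0.421% of all tested genes rose and 0.0253% fell. Over all 19775 genes the median was -0.01, and 10460 were lower with DHT. The median over the 48 genes was -0.15, and 38 were lower with DHT. GBP3 was at 9.46 with DHT, against 9.97 with vehicle, in sh-TOP2B cells, at 7.43, against 8.76, in sh-control cells and at 10.59, against 10.86, in untransfected cells. Its difference was -0.70 ± 0.20 (adjusted p = 0.148). In the shRNA arrays alone 17 of 39 fell, where 12.3% of all tested genes fell. Without the untransfected pair in the full fit 13 fell, and no share of all genes was taken for that fit. In the shRNA arm DHT samples had the lower 3' minus 5' value for beta-actin in both pairs, and its part in these values was not tested. IRF1 had -0.69 over the 3 pairs (adjusted p = 0.0855).

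The baseline of the arms differed before any knockdown. In sh-control cells 8 genes were higher and 17 lower than in untransfected cells with the same DHT or vehicle (20.5% and 43.6% of 39), where 41.7% of all tested genes were higher and 26.6% lower. IFI6 was at 8.94 with DHT and 9.19 with vehicle in sh-control cells, against 12.07 and 11.91 in untransfected cells, a difference of -2.92 ± 0.11 (limma adjusted p = 4.90e-06). IFITM1 (-2.82), GBP3 (-2.63), OAS1 (-2.02), IFIT3 (-1.53) and ISG15 (-1.08) were also lower. PARP14 (1.36, with probe sets from -0.49 to 1.36), CMPK2 (1.30), PARP12 (1.26) and TRIM21 (1.13) were higher. Of 23 tested genes of the pathway list 5 were higher and 12 lower. IRF9 (-2.87), IRF7 (-1.40) and IRF1 (-1.37) were among the lower ones. IRF2 (2.15) and EIF2AK2 (1.56, with probe sets from -1.56 to 1.56) were among the higher ones. Vector, sorting, RNA quality and series cannot be told apart here, and these values are given as the baseline from which the knockdown difference was measured. IFI6 in sh-TOP2B cells (10.56 with DHT and 10.56 with vehicle) lay below its untransfected levels although it rose with knockdown. OASL in sh-TOP2B cells lay above its levels in untransfected cells (8.50 and 8.11).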

How the data were processed

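Gene expression was measured on 9 Affymetrix U133 Plus 2.0 arrays, 1 per group, with 54675 probe sets each. The deposited values are log2 expression values, made with RMA per the submitters' processing notes, which corrects background, equalises the distributions of the arrays and sums the probes of a probe set, so a shift shared by most genes would be removed. The sources used here do not state the version of RMA or what followed it. The number of arrays limits the precision.

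Among the probe sets listed in the platform annotation 41091 had 1 gene symbol, 1801 several and 11777 none, and 41037 of the first matched RefSeq by gene ID. For each of 19775 genes the probe set brightest on average was kept. Genes under the 40th percentile of mean level were not tested, which left 11865. The tests, all two-sided, used limma 3.58.1 under R 4.3.3. P-values were adjusted by Benjamini-Hochberg and called below 0.05. An additive fit held the 3 backgrounds (untransfected, sh-control, sh-TOP2B) as blocks, a DHT term and own terms for the merbarone, etoposide and steady-state arrays, with 2 residual and 4.62 prior degrees of freedom and a trend on mean level. A lone array is assumed to vary like the arrays of the pairs. The difference of DHT responses used a fit with 1 residual and 5.16 prior degrees of freedom. The labels do not say how cultures were divided among groups.

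Members, pathway genes and lists were chosen with earlier results of these data known. In each comparison the named genes were up to 8 of the largest positive and 8 of the largest negative members at or above the median on some array, and other members are named to account for the whole list. With knockdown, with merbarone against DHT alone and in steady state, pathway genes were named if they passed or differed by 1 or more. JAK1, TYK2, IFNAR1, IFNAR2 and IRF9 were always named there. For the other comparisons only some pathway genes or none are named. Of the pathway list 32 genes were measured. Alternatives were other filters, probe-set summaries, centrings, fits without the trend and fits without a pair.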

Additional observations from a re-analysis of the deposited data

How the results depend on the processing

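No paired analysis was possible because the labels carry no replicate numbers, apart from the matching of DHT and vehicle arrays within each of the 3 backgrounds, which is part of the fit throughout. The 24 knockdown rises were 18 to 30 under the other settings, with 0 falls in each, and the steady-state calls 23 to 30. Beyond the main fit, shares of all genes were taken only for knockdown without the filter and for DHT with the shRNA arrays alone. The other counts in this section have no such share beside them. A filter over the 7 arrays other than sh-TOP2B, chosen after seeing the data, again gave 24 knockdown rises. The DHT count of 0 became 17 with the shRNA arrays alone and 0 to 13 when a pair was left out. The etoposide count of 1 became 0 without the intensity trend and 2, both lower, with the stricter filter, and was 0 to 1 when a pair was left out. Merbarone against etoposide gave 12 calls and 9 to 23 when a pair was left out. With a pair left out, the merbarone calls were 12 to 14, those of steady state 24 to 26 and that of sh-control against untransfected cells 24, and the knockdown count was 29 without the untransfected pair. Knockdown and the difference of DHT responses could not be fitted without an shRNA pair. Of the setting-by-gene values of called genes, 225 knockdown values kept direction and call and 8 lost the call, and for merbarone 144 and 22. IFIT2 in sh-control against untransfected cells took the other sign with the median over probe sets (-0.996). Quantile normalization again moved the share of higher calls in that comparison to 19.2%, against 32%. Centring on ribosomal protein genes shifted the median of tested genes to -0.14 with merbarone, to -0.17 for merbarone against etoposide, to -0.10 in steady state and to -0.03 for sh-control against untransfected cells. The cause of these changes was not tested.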
